A study of Mus musculus with 11 samples.

Results

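Transcripts of 52 genes that license DNA replication, drive the cell cycle through its phases or carry out mitosis were measured in skin tumours of a mouse melanoma model. They are the rows of the gene count table whose mouse symbol is on a list of named cell cycle genes, and all 52 were found among 18756 mouse genes. Of these, 13 act in G1 and at the entry to S phase, 15 license, copy or supply DNA in S phase, and 24 act in mitosis or control it. All 52 passed the filter on low counts.

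In G1, D-type cyclins bind the kinases Cdk4 and Cdk6, and E-type cyclins bind Cdk2. These kinases inactivate the retinoblastoma proteins and so free the E2F transcription factors. E2F factors switch on the genes that load the Mcm2 to Mcm7 helicase onto replication origins and that make nucleotides. Later, the MuvB complex with Mybl2 and Foxm1 drives the genes of mitosis through short promoter elements called the cell cycle homology region (CHR). Melanocytes of adult skin divide rarely, whereas melanoma cells commonly have an active cyclin D pathway.

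RNA sequencing covered 11 end-point tumours of C57BL/6 mice, a common inbred strain, in 3 genotypes. There were 5 libraries of GNA11 Q209L Bap1 KO, 4 of BRAF V600E Bap1 KO and 2 of GNA11 Q209L. GNA11 Q209L locks a G protein alpha subunit in its active state and is typical of uveal melanoma. BRAF V600E is the activating kinase change common in melanoma of the skin, and Bap1 is a nuclear deubiquitinase that acts as a tumour suppressor. GNA11 Q209L Bap1 KO against GNA11 Q209L differs in the Bap1 label, GNA11 Q209L Bap1 KO against BRAF V600E Bap1 KO differs in the oncogene, and BRAF V600E Bap1 KO against GNA11 Q209L differs in both. The 3 comparisons share libraries, so their values stand side by side and no overlap between them is read as a result. The sources used here give no age, sex, batch or Cre promoter.

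Each library held between 18338082 and 81035135 counts. The CPM of a gene is its count scaled to library size times the TMM scaling factor of that library. These factors ran from 0.801 to 1.36. A count of 3 equals 0.0370 to 0.164 CPM by library size alone, without the TMM factor, so this limit is on a slightly different scale. Replicates 1 and 2 of GNA11 Q209L Bap1 KO carry titles that share an identifier and may come from 1 animal. The table's header calls all 9 Bap1 KO libraries BAP1 F/F, but a second copy of it reads NA for BRAF V600E Bap1 KO replicates 2 and 4. Bap1 itself stood at 102, 130, 103, 102 and 170 CPM in GNA11 Q209L Bap1 KO tumours. It stood at 59.9, 57.6, 71.3 and 54.7 CPM in BRAF V600E Bap1 KO tumours, and at 85.1 and 137 CPM in GNA11 Q209L. These counts cover the whole gene, and the deleted part is not given in the sources used here, so they do not check the knockout. Nothing in the labels says that libraries came from separate animals, so p-values measure the spread between these tumours alone.

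Mitotic genes as a class were lowest in GNA11 Q209L, and both Bap1 KO genotypes lay above it. The mean of the 24 mitotic genes was 5.06, 4.55, 3.36, 4.65 and 4.25 log2 CPM in GNA11 Q209L Bap1 KO replicates 1 to 5. It was 4.01, 4.93, 4.09 and 4.01 in BRAF V600E Bap1 KO and 2.31 and 2.86 in GNA11 Q209L, so neither Bap1 KO group overlapped GNA11 Q209L. The mean of the 15 S phase genes was 5.36, 5.31, 4.30, 4.88 and 5.0 in GNA11 Q209L Bap1 KO. It was 4.37, 4.67, 4.40 and 4.16 in BRAF V600E Bap1 KO and 3.59 and 4.16 in GNA11 Q209L. GNA11 Q209L Bap1 KO did not overlap GNA11 Q209L for this class, while BRAF V600E Bap1 KO replicate 4 lay at the level of the higher GNA11 Q209L library.

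The mean of the 13 G1 genes was 5.69 ± 0.285 log2 CPM over the GNA11 Q209L Bap1 KO tumours (SD, n = 5), 5.03 ± 0.264 in BRAF V600E Bap1 KO (SD, n = 4) and 5.08 ± 0.280 in GNA11 Q209L (SD, n = 2). These are levels, and the libraries of BRAF V600E Bap1 KO and GNA11 Q209L overlapped. Those of GNA11 Q209L Bap1 KO, at 5.36 to 5.99, lay above GNA11 Q209L (4.88 and 5.28) and just above BRAF V600E Bap1 KO (4.70 to 5.34). The class includes Cdk2, at means of 687, 43.2 and 487 CPM in the same order of genotypes as the G1 means. Its reads may include those of the overlapping pigment gene Pmel, and a G1 mean without Cdk2 was not taken. Within a library, the mitotic mean lay 0.595 ± 0.310 below the S phase mean in GNA11 Q209L Bap1 KO and 0.139 ± 0.282 below it in BRAF V600E Bap1 KO. In GNA11 Q209L it lay 1.28 and 1.30 below. The mitotic class therefore stood lower against the S phase class in both GNA11 Q209L libraries than in any of the 9 Bap1 KO libraries. No p is given for class means, because the members were chosen with results of these data known.

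**Figure D1:**
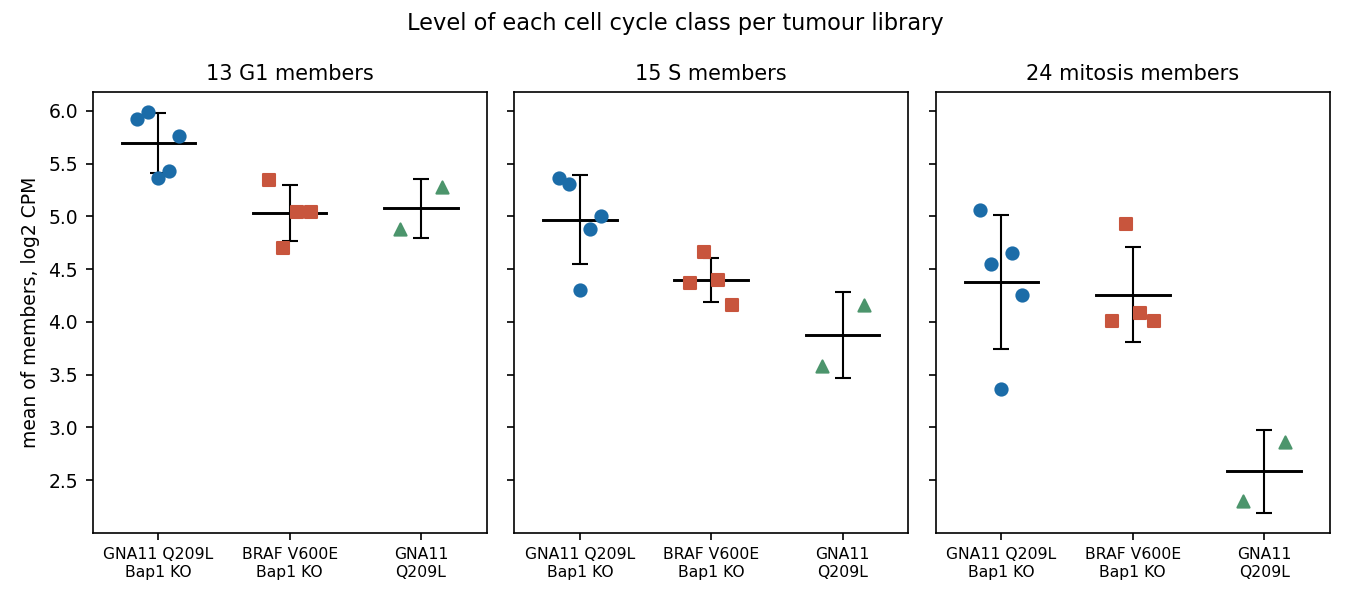
Mean log2 CPM of the G1, S and mitosis genes, 1 point per tumour library, with bars at the mean and ± 1 SD for GNA11 Q209L Bap1 KO (n = 5), BRAF V600E Bap1 KO (n = 4) and GNA11 Q209L (n = 2). In the mitosis panel both GNA11 Q209L libraries, at 2.31 and 2.86, lie below the other 9, and BRAF V600E Bap1 KO replicate 2 stands above the other 3 of its genotype.

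Markers of other cell types differed in level between the groups. In bulk tumour RNA, fewer cells of a type and less RNA per cell cannot be told apart. The 10 melanocyte markers summed to 77533 to 101032 CPM in GNA11 Q209L Bap1 KO tumours, 51.0 to 656 CPM in BRAF V600E Bap1 KO tumours and 67484 to 68824 CPM in GNA11 Q209L, with none at 0 in any genotype. These markers were low in all 4 BRAF V600E Bap1 KO libraries. The 10 matched of 11 macrophage markers summed to 217 to 1158 CPM in GNA11 Q209L Bap1 KO tumours and 812 to 3114 CPM in BRAF V600E Bap1 KO tumours, against 6915 and 841 CPM in GNA11 Q209L. The 10 fibroblast markers summed to 466 to 2454 CPM, 3352 to 23075 CPM, and 11992 and 3024 CPM in the same order of genotypes. The 10 keratinocyte markers summed to 1569 CPM in replicate 1 of GNA11 Q209L Bap1 KO and to 4.39 to 9.12 CPM in its other 4 libraries, against 139 to 12951 CPM in BRAF V600E Bap1 KO tumours and 12.3 and 6.38 CPM in GNA11 Q209L, where Krt1 and Ivl were at 0. Endothelial markers summed to 415 to 569 CPM, 199 to 356 CPM, and 1134 and 707 CPM, and T and NK cell markers to 11.5 to 21.5 CPM, 21.1 to 128 CPM, and 74.7 and 4.99 CPM, in the same order of genotypes. Salivary gland markers reached 175280 CPM in BRAF V600E Bap1 KO replicate 4. Xist RNA, which coats an inactive X chromosome, stood at 695 CPM in replicate 3 of GNA11 Q209L Bap1 KO and at most at 1.42 CPM in its other 4 libraries. It stood at 99.8, 0.920, 1224 and 0.262 CPM in BRAF V600E Bap1 KO tumours and at 358 and 198 CPM in GNA11 Q209L. Xist was at 198 CPM or more in both GNA11 Q209L libraries and in GNA11 Q209L Bap1 KO replicate 3. Their mitotic means were 2.31, 2.86 and 3.36 log2 CPM, against 4.25 to 5.06 in the other 4 GNA11 Q209L Bap1 KO libraries. High Xist and no Bap1 KO label nearly coincided in that comparison. In BRAF V600E Bap1 KO replicates 1 and 3, where Xist was high, the means were 4.01 and 4.09. In replicates 2 and 4 they were 4.93 and 4.01. The part of the markers and of Xist in these means and the results below was not tested, except where a value is given.

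Promoters of the members were searched for short elements. RefSeq windows of 300 bases around the transcription start (250 before, 50 after, build GRCm38.p6) were held for 42 of the 52 members. Both strands were searched for the CHR letters TTTGAA, for CCAAT, and for the E2F letters TTTCCCGC or TTTGGCGC, and no motif contains another. Of 19 mitotic genes with a window, 13 held CHR letters (68.4%), 16 held CCAAT (84.2%) and 0 held these E2F letters. Of 13 S phase genes, 6 held E2F letters (46.2%), 2 held CHR letters (15.4%) and 10 held CCAAT (76.9%). Of 10 G1 genes, 4 held E2F letters (40%), 3 held CHR letters (30%) and 6 held CCAAT (60%). Among the 11430 tested genes with a window the shares were 2.99% for E2F, 14.8% for CHR and 41.9% for CCAAT. Over all 27025 genes with a window they were 1.8%, 20.2% and 41.1%.

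Bases just before the start are shown for 5 mitotic genes with CHR letters there, because CHR letters near the start recur in that class. In Aurka, Bub1b, Cenpf, Kif23, Plk1 and Ttk the CHR letters counted above lay only after the start, and these are not shown. Ccnb2 and Prc1, with CHR letters from 167 and 30 bases before the start, are not shown either. Capitals mark TTTGAA or its reverse complement TTCAAA, and CCAAT or its reverse complement ATTGG, and each run ends at the base before the start. Cdk1 is the kinase of mitosis (chr10:69352913-69352992, minus strand). Cdc20 activates the anaphase promoting complex (chr4:118437344-118437423, minus strand). Mki67 coats mitotic chromosomes (chr7:135716380-135716509, minus strand). Kif11 is the motor that separates spindle poles (chr19:37376302-37376381, plus strand). Top2a untangles sister chromatids (chr11:99024190-99024269, minus strand).
Cdk1: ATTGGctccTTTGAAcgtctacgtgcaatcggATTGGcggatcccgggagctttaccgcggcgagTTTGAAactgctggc
Cdc20: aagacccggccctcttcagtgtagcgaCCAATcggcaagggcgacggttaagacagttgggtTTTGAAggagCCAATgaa
Mki67: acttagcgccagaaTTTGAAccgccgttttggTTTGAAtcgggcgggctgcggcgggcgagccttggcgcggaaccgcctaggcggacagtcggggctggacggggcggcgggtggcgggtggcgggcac
Kif11: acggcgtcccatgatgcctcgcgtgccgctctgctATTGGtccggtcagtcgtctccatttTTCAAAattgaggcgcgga
Top2a: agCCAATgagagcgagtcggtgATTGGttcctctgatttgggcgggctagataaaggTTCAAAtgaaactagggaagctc

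In the stretches shown, CHR letters began 71 and 15 bases before the start in Cdk1, 18 in Cdc20, 116 and 98 in Mki67, 19 in Kif11 and 23 in Top2a. The Top2a window held CHR letters at 179 bases before the start as well, outside the stretch shown. For comparison, the E2F letters are shown in 3 S phase genes, with TTTGGCGC, its reverse complement GCGCCAAA or GCGGGAAA (the reverse complement of TTTCCCGC) in capitals, beside CCAAT. Mcm5 is a helicase subunit (chr8:75109339-75109508, plus strand), as is Mcm6 (chr1:128359706-128359825, minus strand). Cdc6 loads the helicase onto origins (chr11:98908001-98908150, plus strand).
Mcm5: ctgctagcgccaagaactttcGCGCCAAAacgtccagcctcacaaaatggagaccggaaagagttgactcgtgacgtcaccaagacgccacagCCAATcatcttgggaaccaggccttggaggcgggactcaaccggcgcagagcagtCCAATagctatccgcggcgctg
Mcm6: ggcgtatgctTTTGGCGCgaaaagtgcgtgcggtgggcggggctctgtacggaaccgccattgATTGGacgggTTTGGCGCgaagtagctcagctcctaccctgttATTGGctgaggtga
Cdc6: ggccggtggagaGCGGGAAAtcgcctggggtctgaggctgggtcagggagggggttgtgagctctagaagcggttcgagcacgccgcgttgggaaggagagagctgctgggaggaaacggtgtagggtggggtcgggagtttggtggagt

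E2F letters began 149 bases before the start in Mcm5, 110 and 47 in Mcm6 and 138 in Cdc6. A match in letters is a description, not a bound site.

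**Figure D2:**
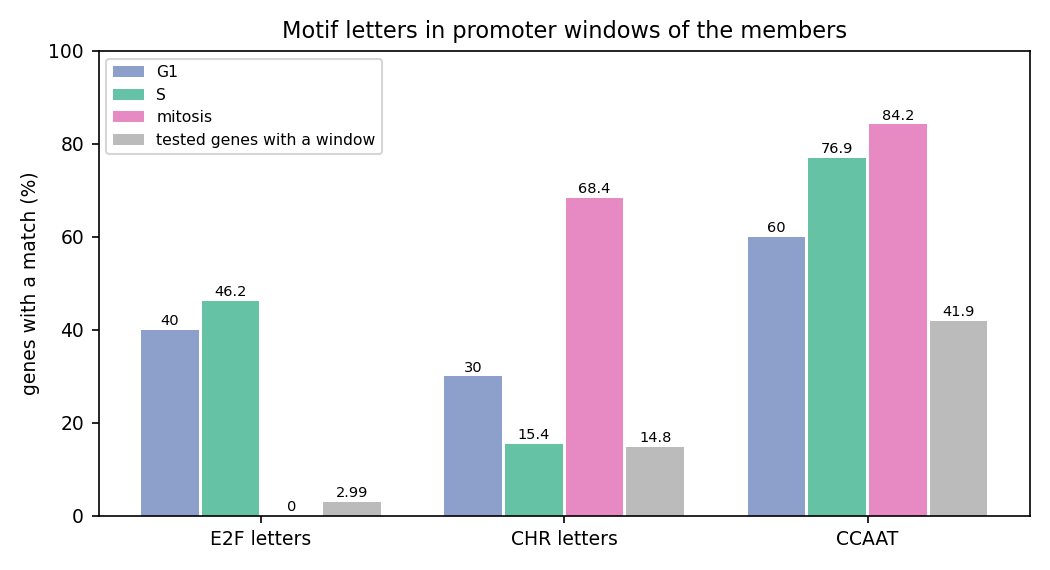
Share of genes (%) whose 300-base promoter window holds E2F, CHR or CCAAT letters, for G1 (10 genes), S (13), mitosis (19) and the 11430 tested genes with a window. CHR letters stand at 68.4% in mitosis against 14.8% of tested genes, and E2F letters at 46.2% in S against 2.99%.

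In GNA11 Q209L Bap1 KO against GNA11 Q209L, none of the 52 genes passed the adjusted threshold of 0.05, although 50 had a fold change above 1, as did 49.3% of all genes. By edgeR's quasi-likelihood test with Benjamini-Hochberg adjustment over 17350 genes, 0 of 52 were called, where 0.0288% of all genes were called, 0.00576% higher and 0.0231% lower. At an unadjusted p under 0.05, 34 of 52 were higher and 0 were lower, against 3.84% of all genes higher and 7.52% lower. Those 34 were 21 of 24 mitotic, 11 of 15 S phase and 2 of 13 G1 genes. DESeq2 called 14 members higher, where it called 1.26% of all genes higher, and limma voom called 0. The median log2 fold change was 1.81 over the mitotic, 1.04 over the S phase and 0.48 over the G1 genes, against -0.004 over all genes tested. With log2 CPM of Xist as a covariate, the mitotic median was 1.26 and 16 members were higher at an unadjusted p under 0.05. With the libraries of a shared identifier summed, the median was 1.67 and the count 26. Without GNA11 Q209L replicate 1 that count was 13, and without replicate 2 it was 32. In 23 of 52 genes all 5 libraries lay above both GNA11 Q209L libraries, as did 7.58% of all genes.

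The mitotic genes had the highest median of the 3 classes. Top2a stood at 116, 46.3, 40.6, 96.2 and 56.6 CPM in GNA11 Q209L Bap1 KO tumours and at 13.8 and 11.8 CPM in GNA11 Q209L (log2 fold change 2.47 ± 0.51 (SE), adjusted p = 0.133). The groups did not overlap, and the lowest knockout library was still above both others. Prc1, which bundles the microtubules of the central spindle, stood at 65.5, 34.2, 24.1, 66.1 and 41.8 CPM in GNA11 Q209L Bap1 KO tumours and 10.2 and 13.6 CPM in GNA11 Q209L (log2 fold change 1.96 ± 0.43 (SE), adjusted p = 0.161). Tpx2, which nucleates spindle microtubules and activates Aurora A, stood at 61.7, 43.9, 21.5, 44.7 and 36.9 CPM against 9.66 and 14.2 CPM (log2 fold change 1.81 ± 0.42 (SE), adjusted p = 0.182). For both genes replicate 3 was the lowest library of GNA11 Q209L Bap1 KO and still above GNA11 Q209L.

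Kif23, a motor of cytokinesis, stood at 23.6, 12.7, 5.68, 20.9 and 11.5 CPM in GNA11 Q209L Bap1 KO tumours and 3.06 and 2.63 CPM in GNA11 Q209L (log2 fold change 2.38 ± 0.59 (SE), adjusted p = 0.213). Mki67 stood at 195, 47.2, 37.7, 71.5 and 22.9 CPM in GNA11 Q209L Bap1 KO tumours and 8.61 and 8.16 CPM in GNA11 Q209L (log2 fold change 3.16 ± 0.80 (SE), adjusted p = 0.221). Replicate 1 held by far the most Mki67, and without it the log2 fold change was 2.42. Ccnb1, the cyclin that partners Cdk1 at mitotic entry, stood at 7.87, 5.86, 2.0, 5.67 and 5.34 CPM in GNA11 Q209L Bap1 KO tumours and 1.86 and 1.74 CPM in GNA11 Q209L (log2 fold change 1.57 ± 0.56 (SE), adjusted p = 0.354). The lowest knockout library was close to GNA11 Q209L. Plk1, a kinase of spindle assembly and mitotic exit, stood at 48.2, 87.2, 13.7, 20.9 and 38.8 CPM against 5.63 and 16.6 CPM (log2 fold change 1.91 ± 0.73 (SE), adjusted p = 0.366). There replicate 3 lay below GNA11 Q209L replicate 2, so the groups overlapped.

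Of the other 17 mitotic genes the adjusted p-values by edgeR ran from 0.213 to 0.541. They include the checkpoint kinases Bub1 (means of 12.7 ± 7.6 CPM in GNA11 Q209L Bap1 KO tumours and 3.12 ± 0.00511 CPM in GNA11 Q209L) and Ttk (4.68 ± 2.24 and 1.05 ± 0.0851 CPM), the spindle motor Kif11 (19.5 ± 11 and 3.36 ± 0.209 CPM) and the centromere proteins Cenpe (14.5 ± 12.3 and 2.99 ± 1.77 CPM) and Cenpf (19.4 ± 12.4 and 3.45 ± 0.713 CPM; SD, n = 5 and 2 throughout). In these 5 genes every GNA11 Q209L Bap1 KO library lay above both GNA11 Q209L libraries. Foxm1, the transcription factor of the mitotic programme, stood at 80.9, 105, 30.8, 46.2 and 76.9 CPM in GNA11 Q209L Bap1 KO tumours, against 14.2 and 49.1 CPM in GNA11 Q209L. Its groups overlapped, as did those of Cdk1, with 58, 63.1, 15.1, 46.7 and 41.4 CPM against 11.2 and 23.6 CPM.

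The S phase genes come next in the order of medians. Rrm2, the regulated subunit of the enzyme that makes deoxynucleotides, stood at 79.9, 57.5, 20.7, 61.9 and 43.8 CPM in GNA11 Q209L Bap1 KO tumours and 6.12 and 14.8 CPM in GNA11 Q209L (log2 fold change 2.33 ± 0.60 (SE), adjusted p = 0.224). Its partner subunit Rrm1 stood at 119, 91.6, 66.2, 105 and 91.4 CPM against 37 and 48 CPM (log2 fold change 1.16 ± 0.28 (SE), adjusted p = 0.2). Both were higher in all 5 libraries than in either GNA11 Q209L library. Cdc6 stood at 12.1, 12.2, 5.19, 8.81 and 7.21 CPM in GNA11 Q209L Bap1 KO tumours and 0.733 and 3.57 CPM in GNA11 Q209L (log2 fold change 2.09 ± 0.64 (SE), adjusted p = 0.282), and Mcm7 at 43.2, 53.4, 24.9, 28.2 and 37.5 CPM against 10.1 and 21.2 CPM (log2 fold change 1.26 ± 0.42 (SE), adjusted p = 0.309). Mcm2 stood at 132, 217, 63.6, 87.6 and 129 CPM against 27 and 72.6 CPM (log2 fold change 1.34 ± 0.50 (SE), adjusted p = 0.358) and overlapped. All 6 subunits of the Mcm2 to Mcm7 helicase had a fold change above 1 and an unadjusted p under 0.05, with a median log2 fold change of 1.13. Pcna, the sliding clamp of DNA polymerase, stood at 49.8, 50.9, 37.7, 61.8 and 51.8 CPM in GNA11 Q209L Bap1 KO tumours and 41.2 and 28.7 CPM in GNA11 Q209L (log2 fold change 0.53 ± 0.27 (SE), adjusted p = 0.512). The licensing factor Cdt1 averaged 26.4 ± 10.5 CPM in GNA11 Q209L Bap1 KO tumours and 22.7 ± 2.96 CPM in GNA11 Q209L, and its inhibitor Gmnn 3.1 ± 1.21 and 3.41 ± 2.62 CPM (SD, n = 5 and 2), both with overlapping groups.

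Among G1 genes, Ccne2 alone had groups that did not overlap. It stood at 7.6, 2.76, 3.9, 8.57 and 6.57 CPM in GNA11 Q209L Bap1 KO tumours and 1.91 and 0.892 CPM in GNA11 Q209L (log2 fold change 2.06 ± 0.59 (SE), adjusted p = 0.251). Its relative Ccne1 stood at 19.2, 25.1, 7.57, 8.52 and 15.7 CPM against 4.87 and 18.2 CPM (log2 fold change 0.40 ± 0.58 (SE), adjusted p = 0.861), so 1 GNA11 Q209L library lay above 3 knockout libraries. Ccnd1, the cyclin of early G1, stood at 1040.0, 1788, 1636, 2112 and 1990.0 CPM in GNA11 Q209L Bap1 KO tumours and 308 and 1208 CPM in GNA11 Q209L (log2 fold change 1.18 ± 0.63 (SE), adjusted p = 0.525). Only the value of replicate 1 fell inside the range of GNA11 Q209L. Its kinase partners were not called, Cdk4 with a log2 fold change of 0.29 ± 0.41 (SE, with adjusted p = 0.86) and Cdk6 with 0.08 ± 0.57 (SE, with adjusted p = 0.985). Among the E2F factors, E2f7, a repressor that E2F itself induces, had 1.31 ± 0.59 (SE, with adjusted p = 0.44) and the activator E2f1 0.76 ± 0.64 (SE, with adjusted p = 0.713). Cdk2 had 0.49 ± 0.30 (SE, with adjusted p = 0.587).

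**Figure D3:**
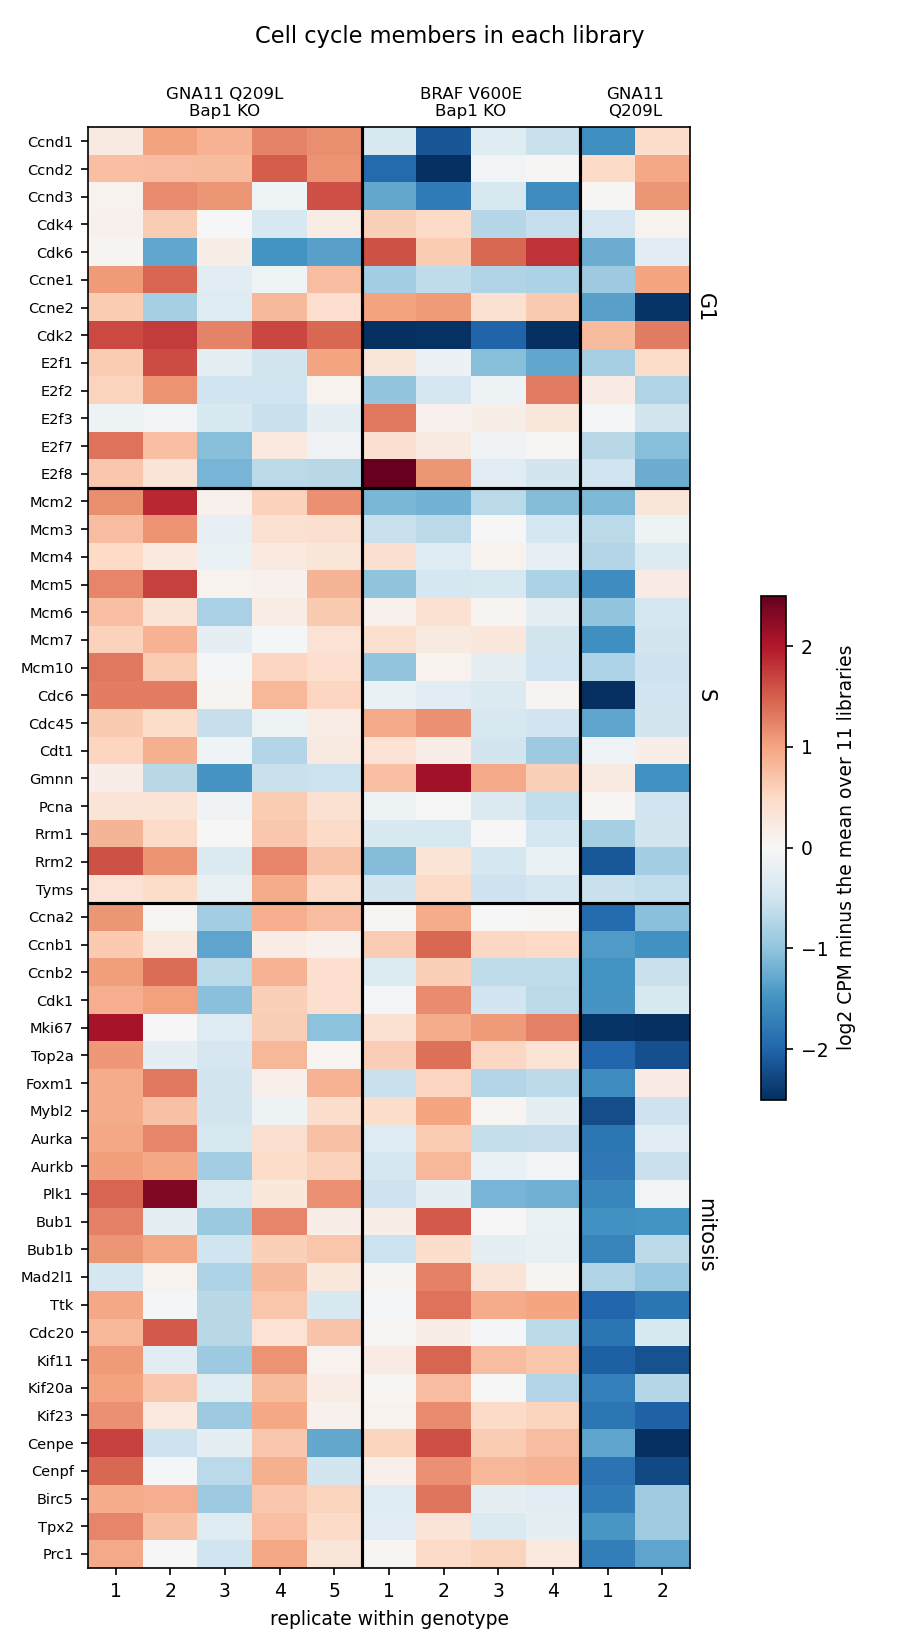
Log2 CPM of each of the 52 members minus its mean over the 11 libraries, with libraries as columns grouped by genotype and members as rows grouped into G1, S and mitosis. Among GNA11 Q209L Bap1 KO the mitosis rows are lowest on average in replicate 3, and Cdk2 is blue in all 4 BRAF V600E Bap1 KO columns. The mitosis rows are below their mean (blue) in both GNA11 Q209L columns, except Foxm1 in replicate 2, at 49.1 CPM.

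Between the oncogenes, 4 G1, 7 S phase and 1 mitotic gene rose, and 2 G1 genes and 1 S phase gene fell. In GNA11 Q209L Bap1 KO against BRAF V600E Bap1 KO, edgeR called 12 of 52 members higher and 3 lower, where 16.5% of all genes were called higher and 24.7% lower. The count of higher members is near that background and is no result about the members as a whole. In 7 members every GNA11 Q209L Bap1 KO library lay above every BRAF V600E Bap1 KO library and in 3 every one lay below, against 14.7% and 17.2% of all genes. Called higher were Cdk2, Ccnd1, Ccnd3 and Ccne1 of G1, Mcm2, Mcm3, Mcm5, Mcm10, Pcna, Rrm1 and Rrm2 of S phase, and Plk1 of mitosis. Called lower were Cdk6, E2f3 and Gmnn. Median log2 fold changes were 0.29 over the G1, 0.62 over the S phase and 0.17 over the mitotic genes, against -0.26 over all genes tested. Under total count scaling, where the median of all genes was -0.64, the class medians were -0.07, 0.20 and -0.24 and 5 members were called higher. Without BRAF V600E Bap1 KO replicates 2 and 4 there were 3, and with the Xist covariate 6. Of all genes, total count scaling called 7471 of 17350 in either direction, against 7146 in the main fit. The fit without those replicates called 3571 of 16254, and that with Xist 6084 of 17350. The part of the melanocyte markers, whose summed levels lay far apart in these genotypes, was not tested.

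Of the G1 cyclins, Ccnd1, Ccnd3 and Ccne1 rose in GNA11 Q209L Bap1 KO. Ccnd1 stood at 1040.0, 1788, 1636, 2112 and 1990.0 CPM in GNA11 Q209L Bap1 KO tumours and at 671, 201, 721 and 608 CPM in BRAF V600E Bap1 KO tumours, with no overlap (log2 fold change 1.64 ± 0.49 (SE), adjusted p = 0.0228). Ccnd3 stood at 175, 375, 354, 153 and 505 CPM against 68.1, 49, 124 and 55.4 CPM, again with no overlap (log2 fold change 2.07 ± 0.45 (SE), adjusted p = 0.00639). Without BRAF V600E Bap1 KO replicates 2 and 4 neither call held (adjusted p = 0.123 for Ccnd1 and 0.0633 for Ccnd3). Ccnd2 stood at 899, 903, 918, 1514 and 1156 CPM in GNA11 Q209L Bap1 KO tumours and 138, 25, 508 and 545 CPM in BRAF V600E Bap1 KO tumours. Its groups did not overlap, and BRAF V600E Bap1 KO replicate 2 held the least. Per kilobase of exon, Ccnd1 led the D-type cyclins in both genotypes, with means of 364, 115 and 35.6 CPM per kilobase for Ccnd1, Ccnd2 and Ccnd3 in GNA11 Q209L Bap1 KO. The same means were 117, 32.3 and 8.46 CPM per kilobase for BRAF V600E Bap1 KO. The lengths count all annotated exons (4.709, 9.409 and 8.775 kilobases), so the gaps between these cyclins depend on the annotation. In GNA11 Q209L, Ccnd1 over Ccnd2 per kilobase was 0.836 and 2.34.

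Ccne1 stood at 19.2, 25.1, 7.57, 8.52 and 15.7 CPM in GNA11 Q209L Bap1 KO tumours and 5.11, 5.9, 5.47 and 5.29 CPM in BRAF V600E Bap1 KO tumours, with no overlap (log2 fold change 1.48 ± 0.47 (SE), adjusted p = 0.0284). The 4 BRAF V600E Bap1 KO libraries were nearly equal. This call was lost in 11 of 20 alternatives, among them the fits without GNA11 Q209L Bap1 KO replicate 1, 2 or 5 or without any 1 BRAF V600E Bap1 KO library, over an adjusted p from 0.00629 to 0.126. Cdk6 was the opposite case. It stood at 8.09, 3.15, 8.55, 2.76 and 3.02 CPM in GNA11 Q209L Bap1 KO tumours and 23.5, 12.1, 21 and 27 CPM in BRAF V600E Bap1 KO tumours (log2 fold change -2.03 ± 0.46 (SE), adjusted p = 0.0073), while Cdk4, which does the same work, had a log2 fold change of 0.09 ± 0.33 (SE, with adjusted p = 0.841). Every BRAF V600E Bap1 KO library held more Cdk6 than any GNA11 Q209L Bap1 KO library, and the call held under all 20 alternatives. Per kilobase, Cdk4 exceeded Cdk6 in all 11 libraries, by 94.3 to 389 times in GNA11 Q209L Bap1 KO tumours, 19.7 to 91.4 times in BRAF V600E Bap1 KO and 132 and 182 times in GNA11 Q209L.

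The activator E2f1 stood at 57.5, 116, 31.9, 27.2 and 73.6 CPM in GNA11 Q209L Bap1 KO tumours and 45.9, 33.7, 17.9 and 15.2 CPM in BRAF V600E Bap1 KO tumours (log2 fold change 1.12 ± 0.51 (SE), adjusted p = 0.0971), and it was not called. E2f3, another activator, stood at 18.5, 19.4, 15.6, 13.8 and 17 CPM against 50.6, 21.8, 22.4 and 24.6 CPM and was called lower. That call was lost in 11 of 20 alternatives, among them the fits without any 1 GNA11 Q209L Bap1 KO library and without BRAF V600E Bap1 KO replicate 1, where the log2 fold change was -0.45, and its adjusted p ran from 0.00838 to 0.132. E2f8, a repressor, stood at 23.1, 18.2, 6.49, 9.09 and 9.02 CPM against 107, 31.2, 11.9 and 10.6 CPM. BRAF V600E Bap1 KO replicate 1 was the highest library for E2f3 and E2f8.

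Between the oncogenes Cdk2 had the largest log2 fold change of the 52. It stood at 729, 784, 551, 737 and 632 CPM in GNA11 Q209L Bap1 KO tumours, 38.2, 41.9, 57.8 and 35 CPM in BRAF V600E Bap1 KO tumours and 402 and 573 CPM in GNA11 Q209L (log2 fold change 3.99 ± 0.27 (SE), adjusted p = 3.57e-05 between the oncogenes). In GENCODE M21 the gene spans of Cdk2 and Pmel, the pigment fibril gene, overlap by 837 bases on opposite strands, of which 34 are exon bases of both. Pmel stood at 18382 to 53525 CPM in GNA11 Q209L Bap1 KO tumours, 3.66 to 25.9 CPM in BRAF V600E Bap1 KO tumours and 23799 and 28107 CPM in GNA11 Q209L. For each 100 Pmel counts there were 1.47 to 4.01 Cdk2 counts in the 7 libraries with GNA11 Q209L, against 135 to 1044 in the 4 BRAF V600E Bap1 KO libraries. Whether the libraries kept strand is not given in the sources used here, so reads of Cdk2 and Pmel cannot be told apart in that stretch. Without Cdk2, 11 of 51 members were called higher.

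Of the 6 subunits of the Mcm2 to Mcm7 helicase, 3 were called higher. Mcm2 stood at 132, 217, 63.6, 87.6 and 129 CPM in GNA11 Q209L Bap1 KO tumours and 26.7, 25.7, 36.8 and 27.7 CPM in BRAF V600E Bap1 KO tumours, with no overlap (log2 fold change 2.11 ± 0.40 (SE), adjusted p = 0.00355). Mcm5 stood at 114, 160.0, 51.8, 52.3 and 88.3 CPM against 24.4, 36.2, 36.9 and 28 CPM, also with no overlap (log2 fold change 1.57 ± 0.43 (SE), adjusted p = 0.0166), and its call was lost without BRAF V600E Bap1 KO replicates 2 and 4 (adjusted p = 0.0913) and under total count scaling (0.0508). Mcm3 was called too, though not in 4 of 20 alternatives (adjusted p from 0.00694 to 0.153), while Mcm4, Mcm6 and Mcm7 were not. Mcm10, a helicase activator outside the ring, lost its call in 11 of 20, with an adjusted p from 0.00969 to 0.245. Mcm4 averaged 43.1 ± 6.82 CPM in GNA11 Q209L Bap1 KO tumours and 37 ± 8.41 CPM in BRAF V600E Bap1 KO tumours, and Mcm6 70.4 ± 24.7 and 60.3 ± 10.6 CPM (SD, n = 5 and 4). The ratio of Mcm2 to Mcm4 per kilobase was taken, a choice made after the values were seen and not tested. Its level depends on the annotated exon lengths (6.956 kilobases for Mcm2, 3.589 for Mcm4), so only genotypes are compared. Mcm2 over Mcm4 was 1.33, 2.58, 1.01, 1.05 and 1.48 in GNA11 Q209L Bap1 KO tumours, 0.287, 0.452, 0.490 and 0.451 in BRAF V600E Bap1 KO, and 0.637 and 1.30 in GNA11 Q209L. All 5 GNA11 Q209L Bap1 KO libraries lay above all 4 BRAF V600E Bap1 KO libraries.

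Gmnn, which binds Cdt1 and blocks repeated licensing, stood at 4.99, 2.76, 1.62, 3.05 and 3.08 CPM in GNA11 Q209L Bap1 KO tumours and 7.51, 19.1, 8.64 and 6.78 CPM in BRAF V600E Bap1 KO tumours, with no overlap (log2 fold change -1.76 ± 0.49 (SE), adjusted p = 0.0179). The call was lost without BRAF V600E Bap1 KO replicate 2, the highest library (log2 fold change -1.30, adjusted p = 0.0565, in a range of 0.00148 to 0.0995 over the alternatives). Cdt1 stood at 31.9, 40.6, 20.4, 13.3 and 25.9 CPM in GNA11 Q209L Bap1 KO tumours, against 28.2, 24.6, 16.1 and 11.7 CPM in BRAF V600E Bap1 KO tumours, and overlapped. Per kilobase, Cdt1 over Gmnn was 2.98, 6.85, 5.88, 2.03 and 3.93 in GNA11 Q209L Bap1 KO tumours, 1.75, 0.603, 0.867 and 0.804 in BRAF V600E Bap1 KO, and 1.82 and 7.40 in GNA11 Q209L. This ratio was also chosen after its values were seen.

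Rrm1 stood at 119, 91.6, 66.2, 105 and 91.4 CPM in GNA11 Q209L Bap1 KO tumours and 50.3, 49.6, 66.2 and 49.1 CPM in BRAF V600E Bap1 KO tumours (log2 fold change 0.82 ± 0.21 (SE), adjusted p = 0.013), and the groups met at 66.2 CPM. The call was lost under total count scaling (log2 fold change 0.43, adjusted p = 0.186) and without BRAF V600E Bap1 KO replicates 2 and 4 (adjusted p = 0.118). Rrm2 averaged 52.7 ± 22.1 and 22.4 ± 8.8 CPM (log2 fold change 1.23 ± 0.43 (SE), adjusted p = 0.0417) and Pcna 50.4 ± 8.57 and 33.3 ± 6.09 CPM (log2 fold change 0.60 ± 0.22 (SE), adjusted p = 0.0467) in these genotypes (SD, n = 5 and 4). The Rrm2 call was lost in 11 of 20 alternatives, with an adjusted p from 0.0182 to 0.161, and the Pcna call in 13, with 0.0190 to 0.552. Leaving out GNA11 Q209L Bap1 KO replicate 1, 2, 4 or 5, or BRAF V600E Bap1 KO replicate 1, 3 or 4, ended either call.

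Of the mitotic genes, Plk1 alone was called. It stood at 48.2, 87.2, 13.7, 20.9 and 38.8 CPM in GNA11 Q209L Bap1 KO tumours and 12.3, 14.9, 7.77 and 7.56 CPM in BRAF V600E Bap1 KO tumours (log2 fold change 1.97 ± 0.56 (SE), adjusted p = 0.0183), with GNA11 Q209L Bap1 KO replicate 3 inside the range of BRAF V600E Bap1 KO. The call was lost with the Xist covariate (adjusted p = 0.0512) and without BRAF V600E Bap1 KO replicates 2 and 4 (0.0888), in a range of 0.00181 to 0.0888 over the alternatives. Mki67 stood at 195, 47.2, 37.7, 71.5 and 22.9 CPM against 61.1, 89.4, 97.6 and 113 CPM (log2 fold change -0.27 ± 0.53 (SE), adjusted p = 0.698). Without GNA11 Q209L Bap1 KO replicate 1 it was called lower, with a log2 fold change of -1.01 and an adjusted p of 0.0445, in a range of 0.0445 to 0.981 over the alternatives. Top2a had a log2 fold change of -0.39 ± 0.35 (SE, with adjusted p = 0.383) and Ccnb1 -0.72 ± 0.41 (SE, with adjusted p = 0.173), both below 0, and the groups overlapped.

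Ccnb2, another B-type cyclin, had 0.92 ± 0.44 (SE, with adjusted p = 0.112), the checkpoint kinase Bub1b 0.76 ± 0.36 (SE, with adjusted p = 0.116) and Tpx2 0.78 ± 0.31 (SE, with adjusted p = 0.0624). Without GNA11 Q209L Bap1 KO replicate 3, the lowest library for mitotic genes in that genotype, these 3 passed (adjusted p = 0.0413, 0.0411 and 0.0231). Without BRAF V600E Bap1 KO replicate 2, the highest in its genotype, Ccnb2 and Tpx2 passed (0.0470 and 0.0469). Over the alternatives their adjusted p ran from 0.0413 to 0.410, 0.0411 to 0.497 and 0.0231 to 0.381.

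**Figure D4:**
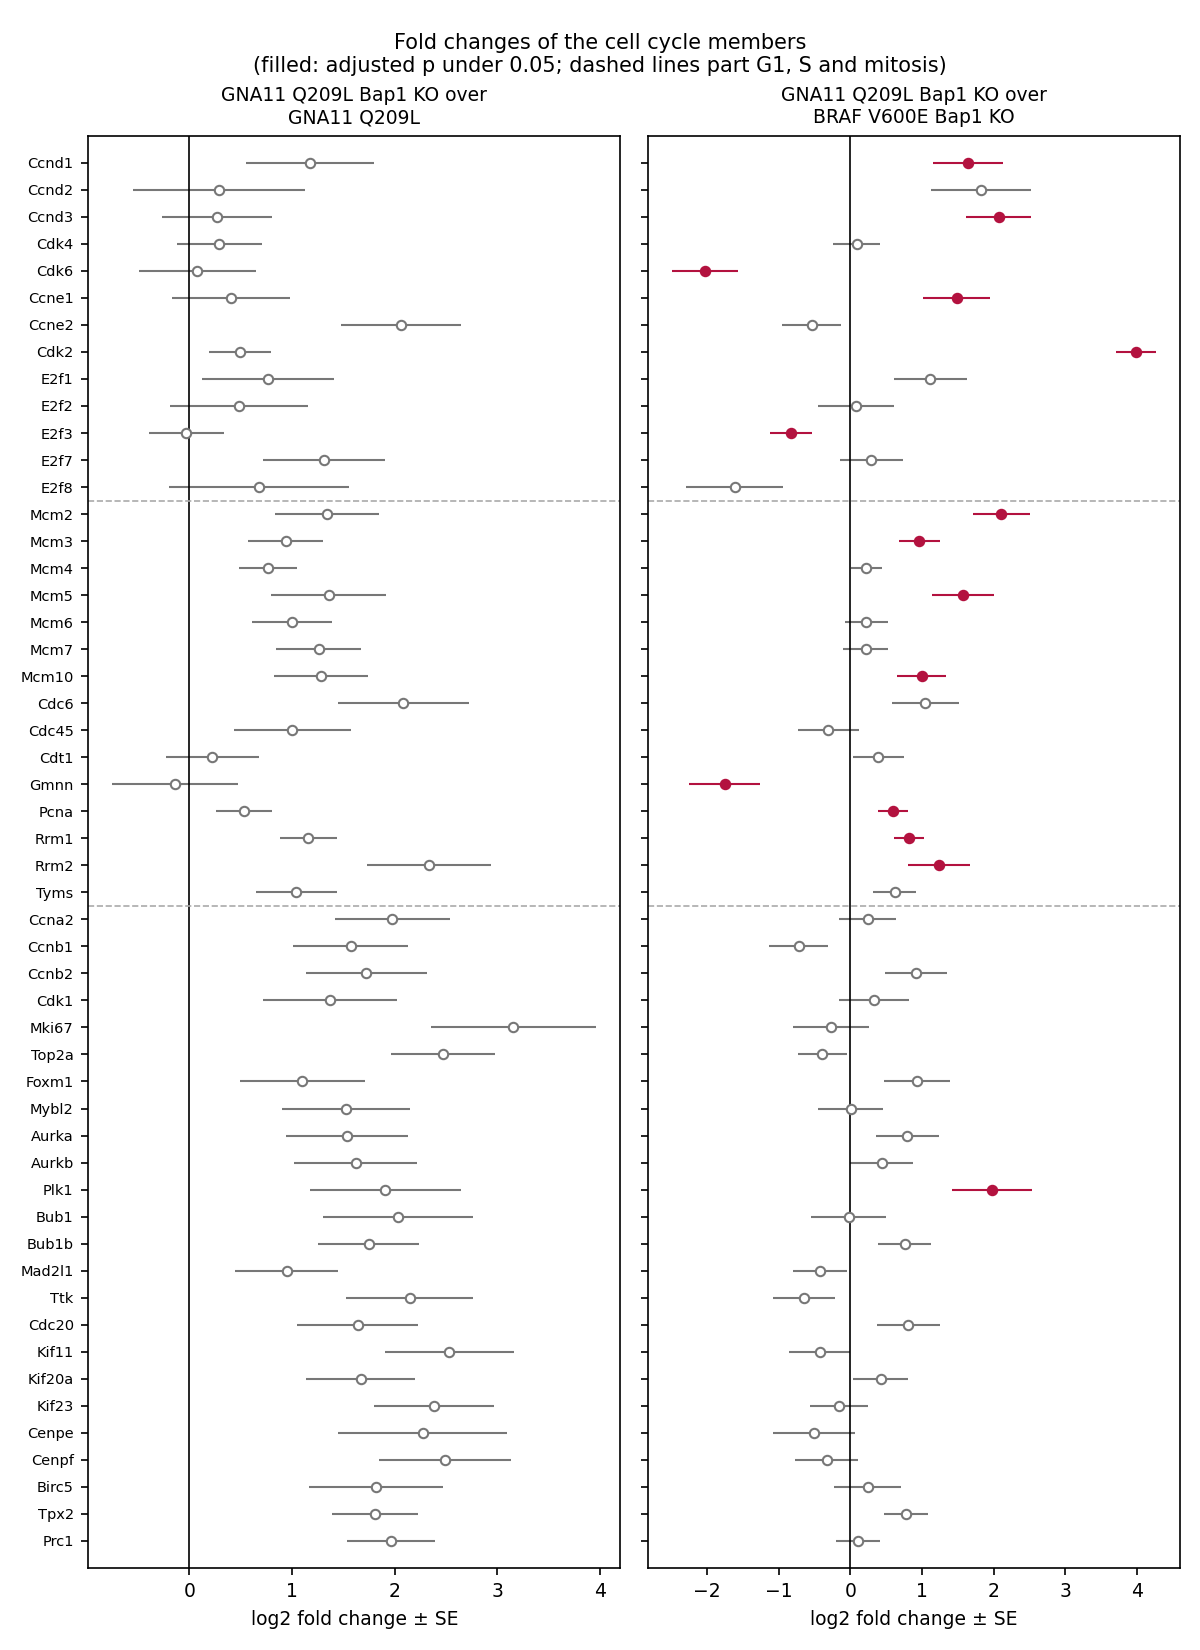
Log2 fold change ± SE (edgeR) of each member, in GNA11 Q209L Bap1 KO over GNA11 Q209L (left) and over BRAF V600E Bap1 KO (right), with filled red points for an adjusted p under 0.05. On the left the mitosis block, at the bottom, lies between 0.95 and 3.16 with no filled point, and on the right the filled points lie mostly in the G1 and S blocks. The panels share the GNA11 Q209L Bap1 KO libraries.

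BRAF V600E Bap1 KO against GNA11 Q209L differs in oncogene and Bap1 label together. By edgeR 9 of 52 members were called higher and 2 lower, against 5.93% of all genes higher and 9.27% lower. The 9 were Top2a, Kif11, Prc1, Ttk, Cenpf, Kif23, Mki67 and Ccnb1 of mitosis and Ccne2 of G1, and the 2 were Cdk2 and Ccnd3. The median log2 fold change was 1.55 over the mitotic, 0.42 over the S phase and 0.20 over the G1 genes, against 0.23 over all genes tested. Under total count scaling they were 2.04, 0.89 and 0.65, against 0.66. Top2a stood at 83.4, 142, 78 and 69.4 CPM in BRAF V600E Bap1 KO tumours and 13.8 and 11.8 CPM in GNA11 Q209L (log2 fold change 2.86 ± 0.53 (SE), adjusted p = 0.0097). Mki67 stood at 61.1, 89.4, 97.6 and 113 CPM against 8.61 and 8.16 CPM (log2 fold change 3.43 ± 0.83 (SE), adjusted p = 0.0256), and Ccnb1 at 7.69, 13.5, 7.1 and 7.0 CPM against 1.86 and 1.74 CPM (log2 fold change 2.29 ± 0.60 (SE), adjusted p = 0.0323). In all 3 genes the genotypes did not overlap. The Ccnb1 call was lost in 6 of 20 alternatives, among them the fits without BRAF V600E Bap1 KO replicate 2 or either GNA11 Q209L library (adjusted p from 0.000286 to 0.229). The Mki67 call was lost in 3 and the Top2a call in 1, without GNA11 Q209L replicate 2 (adjusted p = 0.106). The Ccnd3 call was lost in 11, among them the fit without BRAF V600E Bap1 KO replicates 2 and 4 (adjusted p = 0.170). The Ccne2 call was lost in 5, those of Ttk, Kif23 and Prc1 in 4 each, and those of Kif11 and Cenpf in 3 each. The Cdk2 call held in all 20. With only these genotypes fitted, Ccne2, Ttk, Kif23, Prc1, Ccnb1 and Ccnd3 were not called.

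Leaving out either GNA11 Q209L library kept 1 library in that group. Fewer members were then called, and fewer of all genes too. The mitotic median (log2) was 1.28 without replicate 1 and 2.07 without replicate 2, against 0.51 and 0.23 over all genes. With all libraries 22 members were higher at an unadjusted p under 0.05, against 19.7% of all genes. Without BRAF V600E Bap1 KO replicates 2 and 4, 1 member was called higher and 1 lower. That fit called 838 of 16254 genes in either direction, against 2637 of 17350 with all libraries. DESeq2 called 17 higher, where it called 17.9% of all genes higher. Plk1 was no part of this, with 12.3, 14.9, 7.77 and 7.56 CPM in BRAF V600E Bap1 KO tumours and 5.63 and 16.6 CPM in GNA11 Q209L (log2 fold change -0.06 ± 0.68 (SE), adjusted p = 0.954). Neither were Ccnd1 (log2 fold change -0.46 ± 0.60 (SE), adjusted p = 0.595), Ccne1 (log2 fold change -1.08 ± 0.57 (SE), adjusted p = 0.187), E2f1 (log2 fold change -0.35 ± 0.63 (SE), adjusted p = 0.707), Mcm2 (log2 fold change -0.77 ± 0.47 (SE), adjusted p = 0.255) or Pcna (log2 fold change -0.07 ± 0.27 (SE), adjusted p = 0.878), and all 6 reversed under at least 1 alternative. Cdk6 had a log2 fold change of 2.11 ± 0.65 (SE, with adjusted p = 0.0515), Rrm2 of 1.1 ± 0.57 (SE, with adjusted p = 0.186) and Cdk4 of 0.20 ± 0.43 (SE, with adjusted p = 0.756).

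**Figure D5:**
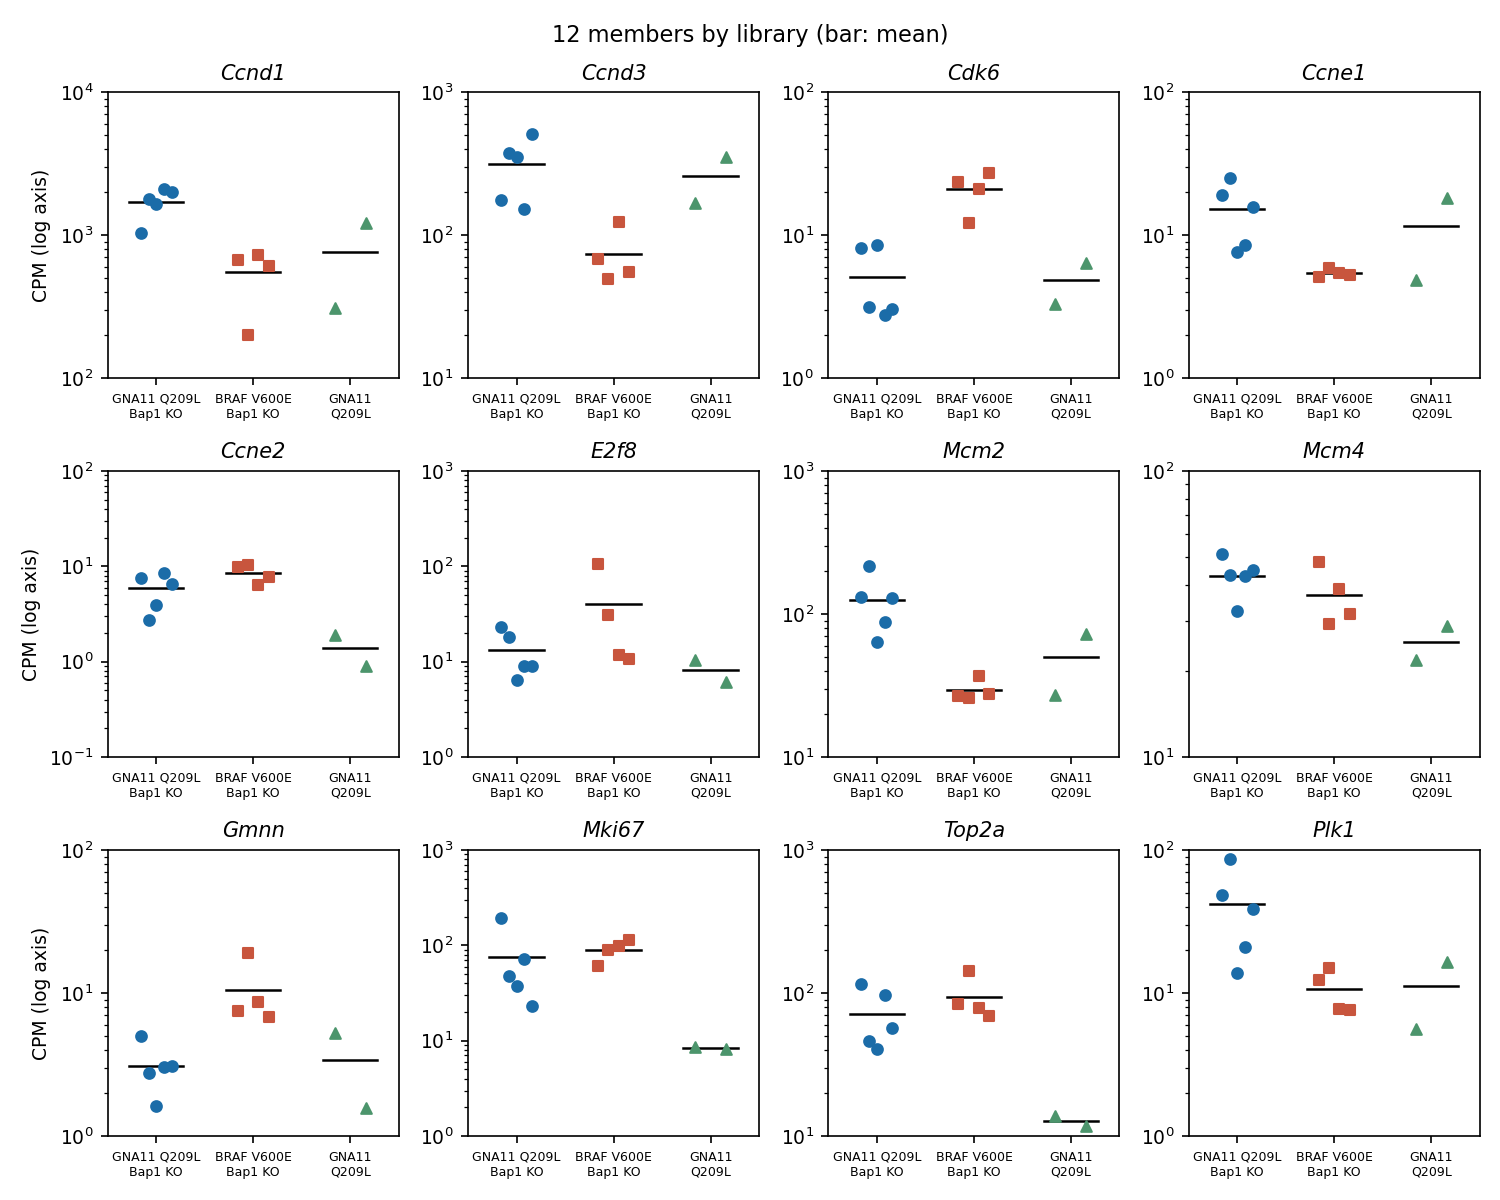
CPM on a log axis of 12 members, 1 point per library, with a bar at the mean of GNA11 Q209L Bap1 KO (n = 5), BRAF V600E Bap1 KO (n = 4) and GNA11 Q209L (n = 2). Top2a, Mki67 and Ccne2 are lowest in both GNA11 Q209L libraries, Ccnd3 and Mcm2 are lowest on average in BRAF V600E Bap1 KO, and Cdk6 and Gmnn are highest there.

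Genes of the same processes outside the 52 were described from 10 lists with 139 genes. In GNA11 Q209L Bap1 KO against GNA11 Q209L, 0 of 139 were called by edgeR, and 48 were higher and 0 lower at an unadjusted p under 0.05, against 3.84% of all genes higher and 7.52% lower. DESeq2 called 26 of them higher, against its 1.26% of all genes. Spindle motors and cytokinesis genes had the highest count and median of the 10 lists, with 17 of 20 and a median log2 fold change of 2.05. Among these were the chromosome motor Kif4 (10.9 ± 6.58 CPM in GNA11 Q209L Bap1 KO tumours and 1.65 ± 0.373 CPM in GNA11 Q209L; log2 fold change 2.72 ± 0.65) and the spindle pole protein Aspm (13.6 ± 7.8 and 2.68 ± 0.123 CPM; 2.34 ± 0.58). Centromere and kinetochore genes counted 10 of 17 with a median of 1.48, led by the kinetochore scaffold Casc5 (2.98 ± 0.75) and Cenpi (2.0 ± 0.56). Condensin, cohesin and separase genes counted 9 of 14 with a median of 1.15, led by the condensin subunits Ncapd3 (1.21 ± 0.31) and Ncaph (1.91 ± 0.49).

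The remaining lists had lower medians. Fork and polymerase genes counted 5 of 27 (median 0.56), led by the checkpoint adaptor Clspn (2.12 ± 0.53) and the ligase Lig1 (1.31 ± 0.39). Anaphase promoting complex genes counted 3 of 16 (median 0.32), led by its inhibitor Fbxo5 (1.79 ± 0.57). CDK regulators counted 2 of 13 (median 0.78), nucleotide supply 1 of 6 (0.71), E2F partners and MuvB 1 of 13 (0.15), origin recognition 0 of 6 (0.44) and CDK inhibitors 0 of 7 (-0.49). Adjusted p-values by edgeR ran from 0.200 for Kif4 upward in all 10 lists.

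Against BRAF V600E Bap1 KO, 12 of the 139 were called higher and 11 lower in GNA11 Q209L Bap1 KO, with a median log2 fold change of -0.06. Both counts lie below the 16.5% and 24.7% of all genes and are no result about the lists. The single-strand binding protein Rpa1 stood at 247 ± 58.1 CPM in GNA11 Q209L Bap1 KO tumours and 50.9 ± 1.02 CPM in BRAF V600E Bap1 KO tumours (log2 fold change 2.28 ± 0.25 (SE), adjusted p = 0.000297), while its partner Rpa3 stood at 3.01 ± 1.18 and 11.6 ± 5.53 CPM (log2 fold change -1.94 ± 0.42 (SE), adjusted p = 0.00618). Cdk7 and its cyclin Ccnh, which together activate the other cell cycle kinases, both fell, Cdk7 to 16.6 ± 4.87 CPM against 53.2 ± 11.1 CPM (log2 fold change -1.68 ± 0.28 (SE), adjusted p = 0.002) and Ccnh to 9.24 ± 2.09 CPM against 31.4 ± 12.5 CPM (log2 fold change -1.76 ± 0.37 (SE), adjusted p = 0.00505; SD, n = 5 and 4). Of the E2F partners, Tfdp1 and E2f5 were called lower (-1.05 ± 0.28 and -1.18 ± 0.33). Of the spindle list, 1 of 20 was called higher, the cytokinesis regulator Racgap1 (log2 fold change 1.27 ± 0.40 (SE), adjusted p = 0.0289). In BRAF V600E Bap1 KO against GNA11 Q209L, 26 of 139 were called higher and 3 lower, against 5.93% and 9.27% of all genes, among them 8 of 20 spindle genes, such as the motor Kif15 at 6.03, 19.8, 10.2 and 11.9 CPM in BRAF V600E Bap1 KO tumours, against 0.707 and 0.713 CPM in GNA11 Q209L (log2 fold change 4.07 ± 0.91 (SE), adjusted p = 0.0201). Fits without either GNA11 Q209L library kept 1 library in that group. They called fewer genes, in these lists and over all genes.

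Some rows share sequence with other genes. In GENCODE M21, 18 of the 52 members share exon bases with another gene and 12 with another protein coding gene, which lies on the opposite strand for all of them but Foxm1. Among genes with large differences, Kif20a shares 1271 exon bases with Cdc23, Ccnd1 1100 with LTO1, Prc1 911 with Rccd1, Ccne2 609 with Ints8 and Ccna2 510 with Exosc9. The table also has rows for the pseudogenes of Pcna, Ccnd3 and Ccnb2, with 179, 137 and 476 counts over all 11 libraries. How reads with several matches were counted is not given in the sources used here, so values of these members may include reads of other genes.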

How the data were processed

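RNA sequencing of 11 tumours gave 1 table of expected counts per gene, deposited by the authors. Reads were mapped with STAR to build mm9, per the submitters' processing notes, and the sources used here name no counting program, annotation or strandedness. The counts were already whole numbers in every gene line. Of 18763 gene lines, 7 repeats of a gene were dropped, which left 18756 genes, and 6 further transgene lines were left out. Genotypes came from the labels. edgeR 4.0.16 fitted all 11 libraries with genotype as the only term, after TMM scaling and filterByExpr, which left 17350 genes. The quasi-likelihood test was adjusted by Benjamini-Hochberg over all of them, with a threshold of 0.05. Log2 CPM used a prior count of 2. Alternatives used DESeq2 1.42.0 and limma 3.58.1, other scaling and filters, and left out each library in turn.

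The members and lists were chosen with earlier results of these data known. Fold changes are printed for 12 key members (Ccnd1, Ccne1, Cdk4, Cdk6, E2f1, Mcm2, Pcna, Rrm2, Mki67, Top2a, Ccnb1 and Plk1). They are also printed for the 4 members of each class with the smallest p, except in BRAF V600E Bap1 KO against GNA11 Q209L, and for up to 2 genes of each list with the smallest p. Promoter windows came from RefSeq (GRCm38.p6), and exon overlaps and exon lengths from GENCODE M21. Values per kilobase divide CPM by all annotated exon bases of a gene, merged over its transcripts. A count of 3 was taken as the limit of detection, and it covers counting error only.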

Additional observations from a re-analysis of the deposited data

Results flagged for a closer look

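In 16 of 110 groups of 4 or 5 libraries, 1 library stood far from the others of its genotype. Chance alone gives about 1 in 20 for a single group. The groups share the same libraries, so the count is not set against that rate. BRAF V600E Bap1 KO replicate 2 was the library in 13 of them. It was highest for Ccna2 at 47.3 CPM, Ccnb1 at 13.5 CPM, Ccnb2 at 31.0 CPM, Foxm1 at 61.3 CPM, Aurka at 17.8 CPM, Bub1 at 25.4 CPM, Mad2l1 at 31.2 CPM, Cenpe at 32.5 CPM, Birc5 at 40.0 CPM, Tpx2 at 33.0 CPM, Tyms at 24.7 CPM and Gmnn at 19.1 CPM. Its mean over the mitotic genes was 4.93 log2 CPM, against 4.01 to 4.09 in the other 3 libraries of its genotype. This library also held the highest sums of macrophage (3114 CPM), T and NK cell (128 CPM) and erythroid markers (242 CPM) among the BRAF V600E Bap1 KO libraries, and its second header reads NA for BAP1. Their part in the mitotic values was not tested.

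In BRAF V600E Bap1 KO, replicate 1 held the most E2f3 at 50.6 CPM, and replicate 3 the most Rrm1 at 66.2 CPM. In GNA11 Q209L Bap1 KO, Mki67 reached 195 CPM in replicate 1 and lay between 22.9 and 71.5 CPM in the other 4 libraries.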

How the results depend on the processing

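Each comparison was refitted under 20 alternatives, 1 of them and all those for the gene lists outside the 52 chosen after seeing the data. In GNA11 Q209L Bap1 KO against GNA11 Q209L, DESeq2 called 14 members and 26 list genes, and the mitotic median was 1.26 with the Xist covariate. Leaving out 1 library gave medians of 0.26 to 0.84 for G1 and 0.81 to 1.42 for S genes. The Cdk6 fold change (log2) was -0.048 with limma voom. Leaving out 1 library gave -0.33 to 0.70 for Cdk6, below 0 without GNA11 Q209L replicate 1 or GNA11 Q209L Bap1 KO replicate 1 or 3, and -0.26 to 1.73 for Ccne1, below 0 without GNA11 Q209L replicate 1. Without that library the fold changes were 0.50 for Ccnd1, 0.26 for E2f1, 0.79 for Mcm2, 1.35 for Cdc6 and 1.33 for Plk1, and without GNA11 Q209L replicate 2 they were 2.54, 1.62, 2.30, 3.69 and 2.98. With each library left out in turn, values ran from 0.82 to 1.96 for Mcm7, 0.055 to 0.64 for Cdk4, 0.26 to 0.84 for Cdk2 and 0.35 to 0.81 for Pcna.

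In GNA11 Q209L Bap1 KO against BRAF V600E Bap1 KO, members called higher numbered 5 under total count scaling and 6 with Xist. Without the BRAF V600E Bap1 KO libraries that read NA there were 3. Of all genes, these fits called 7471 of 17350, 6084 of 17350 and 3571 of 16254 in either direction, against 7146 in the main fit. List genes called higher numbered 4 under total count scaling and 3 without the NA libraries, and lower 21 under total count scaling, 17 by DESeq2, 7 with libraries of a shared identifier summed and 4 without the NA libraries. The G1 median was -0.071 and the S median 0.20 under total count scaling, and the G1 median 0.79 without the NA libraries. Leaving out 1 library gave 8 to 15 members higher and 2 to 4 lower, 10 to 19 list genes higher and 5 to 11 lower, and a G1 median of 0.10 to 0.75. Cdk4 was -0.33 under total count scaling. Leaving out 1 library gave -0.10 to 0.31 for Cdk4 and -1.01 to 0.017 for Mki67, above 0 without GNA11 Q209L Bap1 KO replicate 5.

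In BRAF V600E Bap1 KO against GNA11 Q209L, members called higher numbered 17 by DESeq2 and 4 with only these genotypes fitted. Without the NA libraries there was 1. Of all genes, these fits called 5423 of 17350, 417 of 17015 and 838 of 16254 in either direction, against 2637 in the main fit. Members called lower numbered 1 under total count scaling, with only these genotypes, with Xist or without the NA libraries. List genes called higher numbered 55 by DESeq2, 1 with only these genotypes, 6 with Xist and 1 without the NA libraries, and lower 1, 1 and 0 in the last 3. The G1 median was 0.65 under total count scaling, -0.13 with Xist and -0.11 without the NA libraries, and the S median 0.89 under total count scaling. Leaving out 1 library gave 0 to 10 members higher and 1 to 2 lower, 0 to 29 list genes higher and 1 to 3 lower, and a G1 median of -0.14 to 0.48. Total count scaling turned E2f1 to 0.093, Pcna to 0.37 and Plk1 to 0.40, and limma voom turned Plk1 to 0.25. Leaving out 1 library gave -1.14 to 0.83 for Ccnd1, -0.038 to 0.48 for Cdk4, -1.75 to 0.16 for Ccne1, -0.86 to 0.42 for E2f1, -1.32 to 0.11 for Mcm2, -0.30 to 0.21 for Pcna and -0.65 to 0.92 for Plk1. Fits that kept 1 GNA11 Q209L library called fewer of all genes too. The cause of these changes was not tested.

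No paired analysis was possible because the labels name no pairs of libraries between genotypes. The labels also give no replicate numbers, and those used here follow accession order. The GNA11 Q209L group of 2 libraries limits the precision of both comparisons against it.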
